A study of Mus musculus with 6 samples.

Results

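The genes described here mark nerves, neurons and the Schwann lineage, the glia of peripheral nerves, and were chosen by symbol for what each is known to mark. They were 35 of the 56691 genes in the deposited counts, and were kept apart as 23 neuronal genes, 6 receptors for neurotrophic factors and 6 Schwann lineage genes. They were measured by bulk RNA-seq in palatal shelves of C57BL/6J mice at embryonic day 14.0, in 3 libraries from the anterior end of the shelf and 3 from the posterior end, obtained by microdissection. The labels name no mutation, transgene or treatment in either group and no difference between the groups other than position. They do not say whether the libraries of a region came from separate embryos. The study calls the samples biologically independent, and pooling of embryos is not stated in the sources used here, so that p-values measure the spread between these libraries. All 35 genes were found. Of these, 29 had at least 10 reads in at least 3 libraries and were tested between the regions, and 6 neuronal genes (Nefh, Stmn3, Snap25, Syt4, Chga and Pou4f1) did not reach that level.

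Nerves reach the palate as bundles of sensory axons from the trigeminal ganglion and of autonomic axons from the pterygopalatine ganglion, and the cell bodies of these neurons lie outside the shelf. Schwann cells, which come from the neural crest, travel along the axons and are kept alive by neuregulin 1, a signal that they read through the receptor pair ERBB3 and ERBB2. The target tissue secretes neurotrophic factors, and axons carry the matching receptors: BDNF and NT-3 act through the NTRK family and NGFR, whereas GDNF and artemin bind the co-receptors GFRA1 and GFRA3 and signal through RET. In bulk tissue, fewer cells of a type and less RNA per cell cannot be told apart.

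One posterior library stood apart at the neuronal genes, and its values are given separately throughout. Levels are given as CPM, read counts relative to the size of the library, scaled by edgeR's TMM method. The summed level of the 23 neuronal genes was 164, 177 and 161 CPM in anterior replicates 1, 2 and 3, and 239, 752 and 149.96 CPM in posterior replicates 1, 2 and 3. Posterior replicate 2 therefore held far more neuronal RNA than the other 5 libraries, and posterior replicate 3 lay just below the anterior libraries. Of 16 autonomic and motor neuron genes, 11 were highest in the same library, among them Phox2a, Vip, Chrna3 and Slc18a3, whose reads are given below. Of the 5 that were tested, 2 were highest in it, and 2 were higher in all anterior than in all posterior libraries. The labels do not give the nerve or ganglion content of the dissections, and in these data a difference in that content cannot be told apart from one in neuronal RNA of the shelf itself. Separately, posterior replicates 2 and 3 differed together from the other 4 libraries in that 6.12% and 5.94% of their reads mapped to several places, against 8.45% to 8.77%. Their mitochondrial share was 0.973% and 1.14%, against 2.70% to 2.97%. The part of these differences in the results was not tested. The 6 libraries held 11378736 to 15172733 reads on genes, and the limit of 3 reads that a count of 0 allows was 0.206 to 0.260 CPM.

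Promoter sequences were looked up because many neuronal genes are silenced outside neurons by REST, a repressor that binds the RE1 element, and because most of the neuronal genes were high together in a single library. The half-sites of RE1, CAGCACC and GGACAGC, were searched on both strands in RefSeq promoters (GRCm38.p6), from 250 bases before to 50 bases after each start. Of all 32851 promoters, 7.14% held the first half-site, 6.56% the second and 0.575% both. Of the neuronal genes 16 had an entry, with 26 promoters, and 2 of these, those of Scg2 and Tubb3, held both half-sites. Of the receptors 3 and of the Schwann genes 3 had an entry, and no promoter among them held either. The stretches below are shown for the 2 genes with half-sites, which are in capitals, and for Prph and Ina, which had the largest log2 fold changes of the tested genes and held neither half-site.
Scg2, chr1:79440027-79440056, minus strand: ctctataagccgaggaGCTGTCCGGTGCTG
Tubb3, chr8:123411420-123411449, plus strand: gatctcggtgccGGTGCTGatgctgcagag
Prph, chr15:99055024-99055173, plus strand: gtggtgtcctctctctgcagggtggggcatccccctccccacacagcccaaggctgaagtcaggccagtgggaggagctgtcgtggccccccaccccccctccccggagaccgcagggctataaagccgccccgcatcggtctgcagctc
Ina, chr19:47014531-47014680, plus strand: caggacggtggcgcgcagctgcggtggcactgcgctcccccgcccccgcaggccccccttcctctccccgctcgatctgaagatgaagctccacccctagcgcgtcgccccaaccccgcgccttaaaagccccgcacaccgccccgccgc

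In Scg2 both half-sites read from the opposite strand and lie next to each other, without a base between them. In Tubb3 the first half-site is shown and the second lies after the start, outside the stretch. A match is a description of letters in these windows and not evidence of binding.

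Between the regions, 3 of the 17 neuronal genes tested changed. Nefl and Nefm, the light and medium neurofilament subunits that fill the axon, were higher in the posterior palate, and Isl2, a LIM homeodomain factor of sensory and motor neurons, was higher in the anterior palate. Over all 15673 genes tested, 4.87% were called higher in the posterior and 2.59% in the anterior palate (adjusted p-values under 0.05). The neuronal genes had a median log2 fold change, posterior over anterior, of 1.35, against -0.00 for all genes tested, and 16 of the 17 values were positive. This median was 0.33 without posterior replicate 2, when 11 of 16 values were positive and 4 genes had changed sign. Libraries of both regions were fully parted for 5 neuronal genes that were higher in the posterior palate and for 1 that was higher in the anterior palate, where 14.7% and 13.4% of all genes tested did so. The 6 genes below the filter are given with their reads below.

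**Figure D1:**
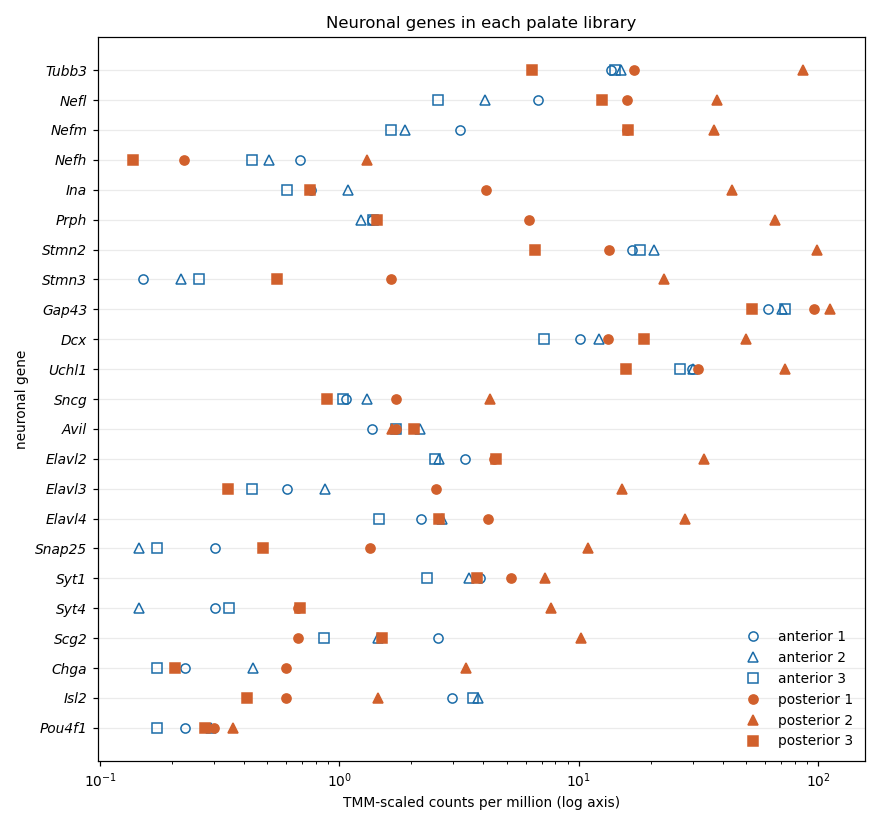
CPM (log axis) of the 23 neuronal genes in each of the 6 libraries, with open symbols for anterior and filled symbols for posterior libraries and a symbol for each replicate number. Posterior replicate 2 (filled triangles) lies furthest to the right for 21 of the 23 genes, the exceptions being Avil and Isl2.

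Nefm (ENSMUSG00000022054.12; GRCm38 chromosome 14, 68082590 to 68124846) had 3.19, 1.89 and 1.64 CPM in anterior replicates 1, 2 and 3 and 15.9, 36.8 and 16.05 CPM in posterior replicates 1, 2 and 3. All 3 posterior libraries were above all 3 anterior ones, with posterior replicate 2 the highest. The log2 fold change was 3.34 ± 0.43 (SE, edgeR's quasi-likelihood test, adjusted p = 0.00417), and 2.82 (adjusted p = 0.00534) without posterior replicate 2. Nefm was called under all 16 alternatives in which it was tested.

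Nefl (ENSMUSG00000022055.8; chromosome 14, 68083863 to 68089095) lies within the span of Nefm on the opposite strand. It had 6.75, 4.07 and 2.60 CPM in the anterior libraries and 15.9, 37.7 and 12.5 CPM in the posterior libraries. The order of the libraries was again without overlap. Its log2 fold change was 2.29 ± 0.50 (SE, adjusted p = 0.0338 in edgeR). Without posterior replicate 2 it was 1.66 (adjusted p = 0.0740) and the call was lost, as it was without any one of the anterior replicates. Since the genes overlap, the strand matters: 28.2% of the reads assigned to Nefm on either strand lay on the strand opposite to it, against 1.44% for Nefl, and the reads of the genes' own strand are used here.

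The other intermediate filament genes of neurons did not pass edgeR's test with all libraries. Ina (internexin), an early filament protein of neurons, had 0.759, 1.09 and 0.606 CPM in the anterior libraries, and 4.12, 43.9 and 0.754 CPM in the posterior ones. Prph (peripherin), the filament protein of peripheral neurons, had 1.37, 1.24 and 1.38 CPM against 6.21, 66.3 and 1.44 CPM. For both, posterior replicate 2 was high, replicate 1 intermediate and replicate 3 at the anterior level. Their log2 fold changes of 4.28 ± 1.40 (SE, adjusted p = 0.116) and 4.21 ± 1.34 (SE, adjusted p = 0.109 in edgeR) fell to 1.54 and 1.51 without posterior replicate 2. With posterior replicate 1 as the only posterior library they were 2.30 and 2.22. DESeq2 called both (adjusted p = 0.0228 and 0.0187), as did edgeR without a low-count filter. Both were also called without posterior replicate 3 (adjusted p = 0.0474 and 0.0444) and without posterior replicate 1 (adjusted p = 0.0185 and 0.0162). Nefh, the heavy neurofilament subunit of mature axons, was below the filter, with 9, 7 and 5 reads in the anterior and 3, 18 and 2 reads in the posterior libraries.

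Genes of the neuronal cytoskeleton and growth cone were also highest in posterior replicate 2, but in these posterior replicate 3 was often below the anterior libraries. Tubb3, the neuronal beta-tubulin, had 13.7, 15.1 and 14.2 CPM in the anterior libraries and 17.0, 86.3 and 6.38 CPM in the posterior libraries. Stmn2, a stathmin of growing axons, had 16.7, 20.6 and 18.1 CPM against 13.4, 98.8 and 6.58 CPM. The posterior libraries thus lay on both sides of the anterior ones. Neither gene was called (log2 fold change 1.35 and 1.10, adjusted p = 0.326 and 0.443 in edgeR), and without posterior replicate 2 both turned toward the anterior palate, at -0.29 and -0.89. Uchl1, a neuronal ubiquitin hydrolase, behaved alike, with a log2 fold change of 0.47, and -0.28 without that library (adjusted p = 0.543 and 0.664). Across the 23 neuronal genes, posterior replicate 1 was above every anterior library for 18, posterior replicate 2 for 21 and posterior replicate 3 for 8, while posterior replicate 3 was below every anterior library for another 8.

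Gap43, a growth cone membrane protein, was the most abundant neuronal gene per length, with anterior and posterior levels of 44.9 and 57.3 CPM per kilobase of exon. Uchl1 followed at 17.6 and 24.5, and Tubb3 at 7.65 and 19.6 CPM per kilobase. The order of Uchl1 and Tubb3 was the same in both regions, but in posterior replicate 2 alone Tubb3 (46.2) was level with Uchl1 (44.4 CPM per kilobase). In CPM, Gap43 had 61.8, 70.7 and 72.8 in the anterior and 96.0, 112.6 and 53.2 in the posterior libraries. Gap43 was not called with all libraries, but was without posterior replicate 3 (log2 fold change 0.61, adjusted p = 0.0471). Its excess in posterior replicate 2 over the other libraries was thus much smaller than that of Tubb3 or Stmn2. Dcx, which binds microtubules in young migrating neurons, had 10.2, 12.2 and 7.18 CPM against 13.3, 49.996 and 18.8 CPM, with no overlap and no call in edgeR (log2 fold change 1.47 ± 0.48 SE, adjusted p = 0.119), but with a call in DESeq2 (adjusted p = 0.0120). Stmn3, a stathmin with 2, 3 and 3 reads in the anterior libraries, had 22, 314 and 8 in the posterior ones. Its level in posterior replicate 2 was 109 times that of the 3 anterior libraries together (95% exact interval 54.7 to 255, counting error only), and edgeR called it without the filter (adjusted p = 0.00408).

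The 3 neuronal Elavl genes encode RNA-binding proteins that appear as neurons leave the cell cycle. Elavl2 had 3.34, 2.62 and 2.51 CPM in the anterior and 4.42, 33.3 and 4.53 CPM in the posterior libraries. Elavl4 had 2.20, 2.69 and 1.47 CPM against 4.19, 27.8 and 2.61 CPM, and Elavl3 had 0.607, 0.872 and 0.433 CPM against 2.55, 15.2 and 0.343 CPM. All 3 were several times higher in posterior replicate 2 than in any other library. Their log2 fold changes of 2.31, 2.43 and 3.21 did not pass edgeR's test (adjusted p = 0.137, 0.146 and 0.149), whereas all 3 passed it without a low-count filter, and Elavl3 was called by DESeq2 (adjusted p = 0.0107). Without posterior replicate 2, those of Elavl2 and Elavl4 were 0.66 and 0.67, and Elavl3 no longer had enough reads to be tested. Elavl2 and Elavl4 were called without posterior replicate 1 and Elavl3 without posterior replicate 3.

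The genes of synaptic and secretory vesicles were low, and their reads came mostly from the same library. Snap25, a SNARE protein of vesicle fusion, had 4, 2 and 2 reads in the anterior and 18, 152 and 7 reads in the posterior libraries. Syt4, a synaptotagmin, had 4, 2 and 4 against 9, 106 and 10 reads, and Chga, a granule protein of neuroendocrine cells, had 3, 6 and 2 against 8, 47 and 3 reads. None of these 3 genes had enough reads in 3 libraries to pass the filter. Without it, edgeR called Snap25 (adjusted p = 0.00570) and Syt4 (adjusted p = 0.0140) higher in the posterior palate, but not Chga (adjusted p = 0.106). Scg2, a granin of dense-core vesicles, had 2.58, 1.45 and 0.865 CPM against 0.674, 10.2 and 1.51 CPM. It had a log2 fold change of 1.32 (adjusted p = 0.395 in edgeR), and -0.57 without posterior replicate 2. Syt1, the calcium sensor of fast release, was less extreme, with 3.87, 3.49 and 2.34 CPM against 5.24, 7.22 and 3.77 CPM (log2 fold change 0.74 ± 0.31 SE, adjusted p = 0.188).

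Of the remaining cytoplasmic genes, Sncg, a synuclein of peripheral neurons, had 1.04 to 1.31 CPM in the anterior libraries and 1.72, 4.26 and 0.891 CPM in the posterior ones. Avil, an actin-binding protein of sensory neurons, lay between 1.37 and 2.18 CPM in all 6 libraries. Its log2 fold change was 0.04 with a 95% interval of -0.60 to 0.69. Avil was thus 1 of the 2 neuronal genes that were not highest in posterior replicate 2, the other being Isl2.

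Isl2 (ENSMUSG00000032318.13; chromosome 9, 55538672 to 55546180) had 2.96, 3.78 and 3.63 CPM in the anterior and 0.599, 1.44 and 0.411 CPM in the posterior libraries. All 3 anterior libraries were above all posterior ones. The log2 fold change was -2.07 ± 0.43 (SE, adjusted p = 0.0294 in edgeR), and -2.76 (adjusted p = 0.0114) without posterior replicate 2. The call was lost without any one of the anterior replicates or without posterior replicate 3 (adjusted p = 0.0771). It was also lost with a term for posterior replicates 2 and 3, where the difference rests on posterior replicate 1 (log2 fold change -2.51). The gene was not tested where 10 or more counts were required in every library. Its relative Isl1, a gene from the list of sensory neuron genes that is also used by other tissues of the face, had 11.6, 11.9 and 13.4 CPM against 2.62, 3.83 and 2.67 CPM. It had a log2 fold change of -2.01 ± 0.20 (SE, adjusted p = 0.00135) and was called under all 16 alternatives. Pou4f1, the POU factor that defines somatic sensory neurons, stayed at 2 to 5 reads in every library.

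**Figure D2:**
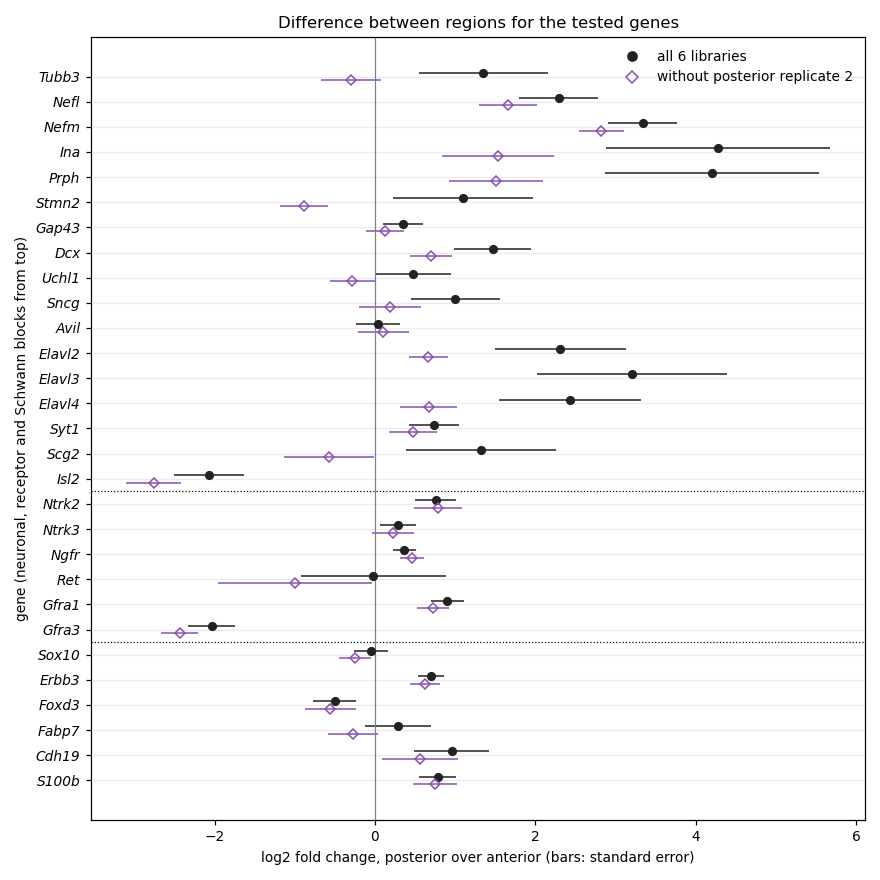
Log2 fold change, posterior over anterior, of the 29 tested genes with its standard error, with all 6 libraries (circles) and without posterior replicate 2 (diamonds), in blocks of neuronal, receptor and Schwann genes. Most neuronal values move toward 0 without that library, by as far as 4.28 to 1.54 for Ina, while Nefm, Isl2 and Gfra3 stay away from 0.

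The height of posterior replicate 2 at these genes was set against the whole table as a description, since this library was singled out after its values were seen. Its level was more than 2 times that of each other library for 13 of the 17 neuronal genes tested, but for 0.568% of all genes tested. No receptor or Schwann gene among the 12 tested did so. The ratio of posterior replicate 2 to the mean of the other 2 posterior libraries had a median of 3.26 over the neuronal genes tested, 1.27 over the receptors, 1.31 over the Schwann genes and 0.994 over all genes tested. Without posterior replicate 2, 1 neuronal gene was called higher in the posterior palate (Nefm) and 1 higher in the anterior palate (Isl2), where 2.03% and 1.22% of all genes tested were called. Without posterior replicate 1, 7 neuronal genes (Nefl, Nefm, Ina, Prph, Dcx, Elavl2 and Elavl4) were called higher in the posterior palate and Isl2 higher in the anterior palate. In that fit 25.3% of all genes tested were called toward the posterior and 21.1% toward the anterior palate.

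Among 30 other genes of axons and synapses, 26 were tested, 3 rose toward the posterior palate and 0 fell (edgeR), where 4.87% and 2.59% of all genes tested were called. Toward the anterior palate 0 genes had an unadjusted p-value below 0.05 and 0 were called by DESeq2 or limma-voom. Scn3a, a sodium channel gene, had 146, 177 and 118 reads in the anterior and 32, 213 and 180 reads in the posterior libraries. It was called in that direction only with a term for posterior replicates 2 and 3 and without these libraries. In both fits the difference rests on posterior replicate 1, and the log2 fold change was -2.25. Ache, which encodes acetylcholinesterase and is made by neurons and by muscle, had 5, 7 and 15 reads in the anterior and 85, 159 and 115 reads in the posterior libraries (log2 fold change 3.57 ± 0.45 SE, adjusted p = 0.00373 in edgeR). Rab3c, a small GTPase of synaptic vesicles, had 2, 8 and 2 against 38, 70 and 41 reads (3.49, adjusted p = 0.00702), and passed the filter on low counts through the posterior libraries only. Map2, a microtubule protein of neurons, was the third, at 0.70 (adjusted p = 0.0484), and its call was lost without any single library other than posterior replicate 1 (0.142 without posterior replicate 2). With the transcript length correction the log2 fold change of Map2 was 0.31 (adjusted p = 0.233). For Ache and Rab3c all 3 posterior libraries were high. Posterior replicate 2 was the highest library for 21 of the 26 tested genes of this list, and the list's median log2 fold change of 0.92 was 0.05 without it.

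The genes that tell kinds of neurons apart differed between autonomic and sensory types. Phox2a, a homeodomain factor of autonomic neurons, had 2, 1 and 0 reads in the anterior libraries and 14, 161 and 2 reads in posterior replicates 1, 2 and 3. Vip, a peptide of parasympathetic neurons, had 0, 2 and 1 against 7, 229 and 0 reads. Against the 3 anterior libraries together, with 3 reads of each gene, posterior replicate 2 was higher by a ratio of 149 for Phox2a (95% exact interval 50.2 to 731) and 212 for Vip (71.7 to 1037). These intervals cover counting error only. Against posterior replicate 3, a library of the same region with 0 reads of Vip, it was at least 80.3-fold higher for that gene.

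Chrna3, a subunit of the nicotinic receptor of autonomic ganglia, had 10, 2 and 0 against 6, 148 and 6 reads. Slc18a3, the vesicular acetylcholine transporter, had 2, 2 and 2 against 5, 50 and 0 reads. The noradrenergic enzymes were far lower, Th at 5 reads or fewer in every library and Dbh at 0 in the anterior libraries and 6, 15 and 7 reads in the posterior ones. Chat and Mnx1, which mark cholinergic and motor neurons, had at most 4 reads. None of these genes had 10 reads in 3 libraries, which the filter asked for. Without the filter, edgeR called Phox2a, Vip, Chrna3 and Dbh higher in the posterior palate.

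**Figure D3:**
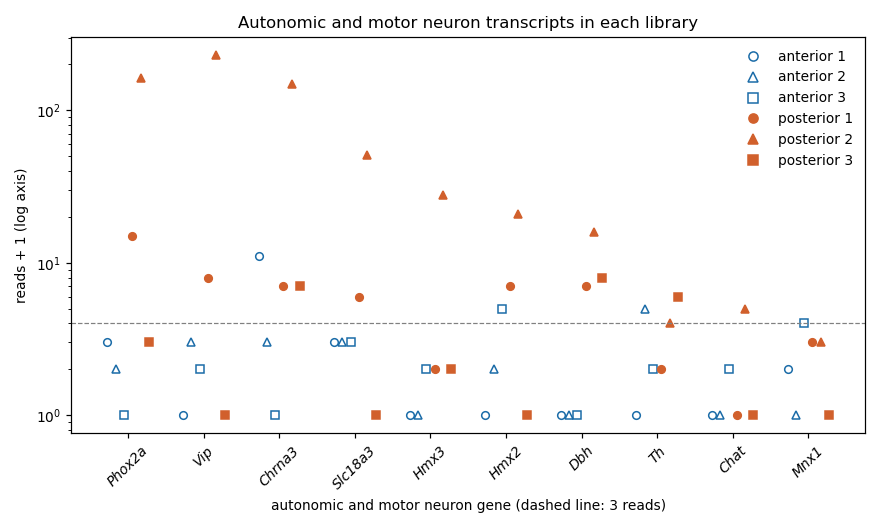
Reads plus 1 (log axis) of 10 autonomic and motor neuron genes in each library, with a dashed line at 3 reads. Posterior replicate 2 (filled triangles) reaches 229 reads for Vip and 161 for Phox2a, while Th, Chat and Mnx1 stay at 5 reads or fewer in all libraries.

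In contrast, the genes that define cranial sensory neurons were at or near 0 in all libraries, posterior replicate 2 included. Prdm12, Neurod1, Neurog1, Neurog2, Pou4f2, Pou4f3, Scn10a and Trpv1 had at most 2 reads. Tlx3 had 2 to 7 reads, Drgx at most 7 and Slc17a6 at most 4. Of the 18 sensory genes 5 were tested, and Isl1 fell while Runx3, a factor of proprioceptive neurons that is also used by other tissues, rose (log2 fold change 1.22 ± 0.20 SE, adjusted p = 0.0110 in edgeR). Runx3 had 4.59 to 5.23 CPM in the anterior libraries and 13.9, 9.03 and 11.7 CPM in the posterior ones, and was lowest in posterior replicate 2 among the posterior libraries. Its call was lost without any one of the anterior replicates (adjusted p = 0.0565 to 0.0587). Of the 16 autonomic and motor genes 5 were tested and 1 changed, Nos1, the neuronal nitric oxide synthase, which had 9.08 to 9.33 CPM against 3.29, 3.11 and 3.84 CPM. It fell by 1.43 on the log2 scale (standard error 0.17, adjusted p = 0.00289 in edgeR). Beside the counts of both lists, 4.87% of all genes tested were called higher in the posterior and 2.59% in the anterior palate.

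Of the 6 receptors for neurotrophic factors, all tested, Gfra1 rose and Gfra3 fell toward the posterior palate. Over all genes tested, 4.87% were called higher in the posterior and 2.59% in the anterior palate. Gfra3 (ENSMUSG00000024366.9; chromosome 18, 34689898 to 34720387), the co-receptor of artemin, had 7.97, 9.60 and 8.22 CPM in the anterior and 1.72, 3.11 and 1.44 CPM in the posterior libraries. The regions did not overlap, and posterior replicate 2 was the highest of the posterior libraries but far below the anterior ones. This was a log2 fold change of -2.04 ± 0.30 (SE, adjusted p = 0.0066 in edgeR) and the call was made under all 16 alternatives.

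Gfra1 (ENSMUSG00000025089.16; chromosome 19, 58235604 to 58455909), the co-receptor of GDNF, had 21.6, 22.2 and 22.5 CPM against 28.4, 51.2 and 44.3 CPM. The regions did not overlap, but posterior replicate 1 was close to the anterior libraries. Gfra1 had a log2 fold change of 0.90 ± 0.21 (SE, adjusted p = 0.0413 in edgeR). The call was lost without any single library other than posterior replicate 1. The log2 fold change was 0.72 without posterior replicate 2 (adjusted p = 0.140) and 0.85 without posterior replicate 3 (adjusted p = 0.129). With posterior replicate 1 as the only posterior library it was 0.36. The call was also lost with a term for posterior replicates 2 and 3 and with the replicate numbers as a block.

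Ret, the signalling receptor that both co-receptors need, did not follow either of them. It had 3.04, 2.18 and 19.1 CPM in the anterior and 2.62, 15.8 and 5.35 CPM in the posterior libraries. It was thus high in 1 library of each region, anterior replicate 3 and posterior replicate 2, and its log2 fold change of -0.02 ± 0.91 (SE) had a 95% interval from -2.13 to 2.09. Without anterior replicate 3 it was 1.59 (adjusted p = 0.330).

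The neurotrophin receptors did not pass edgeR's test with all libraries. Ngfr, the low-affinity receptor p75, is made by Schwann cells and also by mesenchyme, and had 101, 129.6 and 133 CPM in the anterior and 162.5, 136 and 172 CPM in the posterior libraries. Per length its anterior and posterior levels were 35.2 and 45.4 CPM per kilobase, between those of Gap43 and Uchl1. The posterior libraries were above the anterior ones by a small margin, with a log2 fold change of 0.37 that was not called (95% interval 0.04 to 0.70, adjusted p = 0.159 in edgeR).

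Ntrk2, the receptor of BDNF, had 37.6, 27.8 and 51.1 against 50.5, 63.0 and 82.9 CPM (log2 fold change 0.76, adjusted p = 0.124 in edgeR). It was called by DESeq2 (adjusted p = 0.0384) and by edgeR without a low-count filter. Ntrk3, the receptor of NT-3, had 11.5, 14.7 and 14.97 against 11.6, 18.2 and 20.3 CPM (0.29, adjusted p = 0.439). For both genes the regions overlapped, and both were called without posterior replicate 1. The annotated exons of these 2 genes, joined over all transcripts, cover the most bases among the members, 19292 and 30170. With a correction for transcript length the log2 fold change of Ntrk2 was 0.31 and that of Ntrk3 turned to -0.33, neither called.

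The ligands of these receptors were taken from a list of 16 ligands and further receptors, of which 15 were tested, 2 rose (Ntf3 and Nrg1) and 2 fell (Gdnf and Artn). Over all genes tested, 4.87% were called higher in the posterior and 2.59% in the anterior palate. Artn, which encodes artemin, had 3.19, 3.56 and 3.03 CPM in the anterior and 1.35, 1.37 and 1.37 CPM in the posterior libraries (log2 fold change -1.25 ± 0.22 SE, adjusted p = 0.0158 in edgeR). It was thus higher in the anterior palate, as was its co-receptor gene Gfra3. Gdnf had 44, 45 and 49 reads in the anterior and 11, 5 and 16 reads in the posterior libraries (log2 fold change -2.23 ± 0.38 SE, adjusted p = 0.0129), whereas its co-receptor gene Gfra1 was higher in the posterior palate. The call of Artn was lost without anterior replicate 1 or 2 or posterior replicate 2 or 3 (adjusted p = 0.0581 to 0.0874). That of Gdnf was lost without any one of the anterior replicates (adjusted p = 0.0504 to 0.0559) and was kept without any one posterior replicate. It was also lost with the library-group term, which sets posterior replicates 2 and 3 apart and leaves the difference to posterior replicate 1.

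Ntf3, which encodes NT-3, had 9.86, 9.31 and 9.08 CPM against 14.7, 14.5 and 14.7 CPM. It had the smallest SE of the 4 ligands that were called, with a log2 fold change of 0.64 ± 0.12 (SE, adjusted p = 0.0204 in edgeR). Its call was lost without any single library other than posterior replicate 1 (adjusted p = 0.0702 to 0.117), although the log2 fold change stayed at 0.64 without posterior replicate 2. Bdnf was not called, with a log2 fold change of 0.19 ± 0.18 (SE). Nrtn and Ntf5, at -0.50 and -0.45, were called without posterior replicate 1 only.

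**Figure D4:**
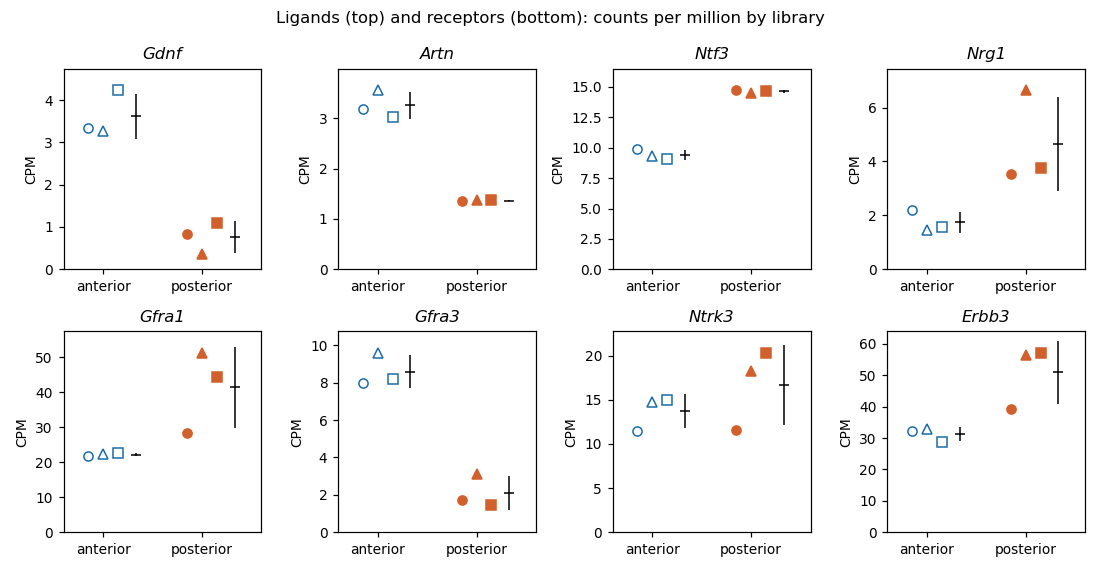
CPM of 4 ligand genes (top) and 4 receptor genes (bottom) in each library, with open symbols for anterior and filled symbols for posterior libraries (circle, triangle and square for replicates 1, 2 and 3) and bars for the mean and SD of 3 libraries. Gdnf and Artn lie higher in the anterior palate, as does Gfra3, while Gfra1 lies higher in the posterior palate and Ntrk3 overlaps between the regions.

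Of the 6 Schwann lineage genes, all tested, Erbb3 alone was called, higher in the posterior palate. Over all genes tested, 4.87% were called in that direction and 2.59% toward the anterior palate. The median log2 fold change of the 6 genes was 0.50, against -0.00 over all genes tested, and 0.16 without posterior replicate 2. None was called higher in the anterior palate by edgeR, DESeq2 or limma-voom, and 0 had an unadjusted p-value below 0.05 in that direction. Sox10, the transcription factor that defines the lineage, had 5.16, 5.45 and 5.36 CPM in the anterior and 4.49, 6.50 and 4.46 CPM in the posterior libraries. The anterior libraries lay inside the posterior range. The log2 fold change was -0.05 with a 95% interval of -0.54 to 0.44. Posterior replicate 2 was therefore only slightly above the others at Sox10, although it held several times the neuronal RNA. The summed level of the 6 genes was 46.7, 49.3 and 44.6 CPM in the anterior and 54.6, 81.1 and 72.1 CPM in the posterior libraries, without overlap. Erbb3 carried this separation: the other 5 genes, a split made after the values were seen, summed to 14.5, 16.4 and 15.7 CPM in the anterior and 15.4, 24.6 and 15.02 CPM in the posterior libraries, which overlap.

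Erbb3 (ENSMUSG00000018166.9; chromosome 10, 128567523 to 128589652), the neuregulin receptor, is also made by epithelia. It had 32.2, 32.9 and 28.8 CPM in the anterior and 39.2, 56.4 and 57.1 CPM in the posterior libraries. The regions did not overlap, and posterior replicates 2 and 3 were the highest. The log2 fold change was 0.70 ± 0.16 (SE, adjusted p = 0.0413 in edgeR). It was 0.63 without posterior replicate 2 (adjusted p = 0.157), 0.62 without posterior replicate 3, and 0.32 with posterior replicate 1 as the only posterior library. The call of Erbb3 was lost without any single library other than posterior replicate 1 and with the replicate numbers as a block. Its ligand gene Nrg1 had 2.20, 1.45 and 1.56 against 3.52, 6.65 and 3.77 CPM (log2 fold change 1.41 ± 0.33 SE, adjusted p = 0.0462), and its call too was lost without any single library other than posterior replicate 1 (0.127 without posterior replicate 2). The partner receptor gene Erbb2 had a log2 fold change of 0.34 and was not called (adjusted p = 0.165).

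The other Schwann members differed in direction. Foxd3, a neural crest factor of early Schwann precursors, had 2.96, 2.04 and 2.42 CPM in the anterior and 1.42, 1.88 and 1.92 CPM in the posterior libraries, without overlap and without a call (log2 fold change -0.50 ± 0.26 SE, adjusted p = 0.276 in edgeR). Fabp7, a lipid-binding protein of glial precursors, had 3.19, 5.31 and 4.59 against 4.27, 8.81 and 2.95 CPM. Its log2 fold change of 0.29 turned to -0.27 without posterior replicate 2.

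Cdh19, a cadherin of Schwann precursors, had 1.21, 1.16 and 1.21 against 0.898, 3.47 and 2.61 CPM (0.96, adjusted p = 0.249). Its log2 fold change was 0.56 without posterior replicate 2, and 1.34 with a call (adjusted p = 0.00439) without posterior replicate 1. S100b, a calcium-binding protein of Schwann cells and of cartilage, had 1.97, 2.47 and 2.16 against 4.34, 3.97 and 3.09 CPM (0.78 ± 0.24 SE, adjusted p = 0.0961) and did not overlap. S100b was called with the correction for transcript length (adjusted p = 0.0364) and without posterior replicate 1 (adjusted p = 0.0474). Cdh19 was high in posterior replicates 2 and 3 only, and S100b in all 3 posterior libraries.

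Of 16 other Schwann genes 13 were tested and 1 was called in each direction. Of all genes tested, 4.87% were called toward the posterior and 2.59% toward the anterior palate. Prx, a protein of myelinating Schwann cells, rose (log2 fold change 0.65 ± 0.12 SE, adjusted p = 0.0199 in edgeR). Mal, a membrane protein that epithelia make as well, fell (-1.04 ± 0.18 SE, adjusted p = 0.0147). Both calls were lost without posterior replicate 2 (adjusted p = 0.0884 and 0.0687), posterior replicate 3 or anterior replicate 1 or 2, and that of Prx also without anterior replicate 3. The median of the list was -0.00, as over all genes tested. Its summed level was 118 to 130.04 CPM in the anterior and 108 to 151 CPM in the posterior libraries.

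**Figure D5:**
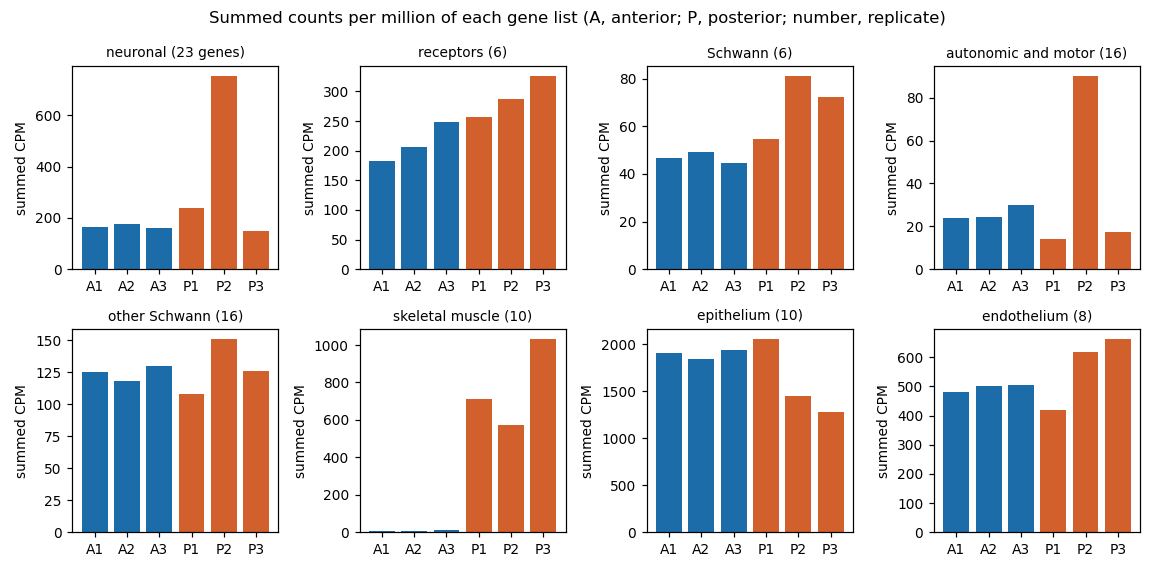
Summed CPM of 8 gene lists in each library, from 0, with anterior libraries in blue and posterior libraries in orange. The neuronal and the autonomic lists peak in posterior replicate 2, at 752 and 90.1 CPM, whereas the skeletal muscle list is high in all 3 posterior libraries and highest, at 1033 CPM, in replicate 3.

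Markers of other cells that a dissection could hold are given for the whole lists. Beside the counts called in these lists, 4.87% of all genes tested were called higher in the posterior and 2.59% in the anterior palate. All 10 skeletal muscle genes rose toward the posterior palate, from a summed 6.83 to 10.6 CPM in the anterior libraries to 710, 575 and 1033 CPM in posterior replicates 1, 2 and 3. Among the posterior libraries this sum was lowest in replicate 2, the library with the most neuronal RNA, but replicate 2 was lowest for 5 of the 10 genes and highest for 2, Myod1 and Myf5. Myod1, Myf5, Mymk and Chrna1 had fewer than 10 reads in every anterior library and passed the filter through the posterior libraries only. Of 10 cartilage genes 8 were tested and 3 rose (Col2a1, Col9a1 and Col9a3). Of the 10 epithelial genes, all tested, Trp63 fell and none rose (0 at an unadjusted p-value below 0.05 and 0 by DESeq2), and their sum was 1841 to 1941 CPM in the anterior and 2055, 1448 and 1275 CPM in the posterior libraries. None of the 8 endothelial genes was called by edgeR (1 in each direction at an unadjusted p-value below 0.05, and 1 higher in the posterior palate by DESeq2), in a sum of 481 to 504 against 418 to 663 CPM. Of 5 mesenchymal genes of the palate, Prrx1 fell and Twist1 and Pdgfra rose, and all 5 were present, at a summed 1477 to 1880 CPM.

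Markers of brain, pituitary and pigment cells were low. Of 13 brain genes 4 were tested, of which 2 fell, Pax6 among them, and Emx2 rose, with a summed 9.67 to 17.7 CPM over the 6 libraries. Of 6 pituitary genes, 5 had at most 3 reads in every library. Of the 8 melanocyte genes 3 were tested and none was called by edgeR or DESeq2 (1 at an unadjusted p-value below 0.05), and the defining genes Tyr, Tyrp1, Dct and Mlana had at most 3 reads. Posterior replicate 2 was not the highest library in the sums of the brain or melanocyte lists, but it was in that of the pituitary list, at 1.3 CPM against 0.823 to 1.27 CPM. The part of muscle, epithelium or the other lists in the neuronal values was not tested.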

How the data were processed

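For each of the 6 libraries the deposited values were raw read counts by Ensembl gene, not normalized by the authors, unstranded and per strand, laid out as STAR writes them. Per the submitters' processing notes the tools were HISAT2, StringTie and DESeq2 1.30.1 with mm10, and the annotation version is not given in the sources used here. Reverse-stranded counts were used. Symbols, positions and exon lengths came from GENCODE M21 (GRCm38) by identifier without version (52073 of 56691 matched).

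The test was edgeR's quasi-likelihood test (edgeR 4.0.16, R 4.3.3, TMM), with region as its term, on genes reaching 10 counts in 3 or more libraries. Benjamini-Hochberg adjustment ran over all of these genes, with a threshold of 0.05. The script was tested on simulated data. CPM per kilobase divides by the union of annotated exons, which the correction for transcript length also uses. Alternatives were DESeq2 1.42.0, limma-voom (limma 3.58.1), RLE normalization, other filters, unstranded counts, a replicate block, a correction for transcript length, a term that sets posterior replicates 2 and 3 apart (library-group term), and leaving out libraries. With the library-group term the difference between regions compares posterior replicate 1 with the anterior libraries, as it does without posterior replicates 2 and 3.

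The genes and all lists were chosen with earlier results of these data known. Named from the other lists were the genes called, at most 4 per list by adjusted p-value, and genes that a result turns on, some of which (the autonomic and sensory genes) were chosen after their values were seen. Within regions the libraries differed beyond sampling noise (chi-square per gene 3.73 to 68.0). Limits for a count of 0 and exact intervals of read ratios cover counting error only, whereas 95% intervals of log2 fold changes cover the spread between libraries. No sequence of chromosome 18 is shown, and some listed genes are not reported here.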

Additional observations from a re-analysis of the deposited data

How the results depend on the processing

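The number of neuronal genes called higher in the posterior palate was 2 with the design used, 6 with DESeq2, 1 with limma-voom, 11 without a low-count filter, 1 with the library-group term, 5 without posterior replicates 2 and 3, and 1 to 7 when single libraries were left out. The number called higher in the anterior palate was 1, and 0 with 10 or more counts required in every library and with the library-group term, and 0 to 1 with single libraries left out. For the receptors, calls toward the posterior palate numbered 1, and 2 with DESeq2 and without a filter, 0 with limma-voom, unstranded counts, the library-group term and without posterior replicates 2 and 3, and 0 to 3 with single libraries left out. For the Schwann genes they numbered 1, and 0 with limma-voom, the library-group term and without posterior replicates 2 and 3, 2 with the transcript length correction, and 0 to 3 with single libraries left out. For the genes of the other nerve lists they numbered 7, and 11 with DESeq2, 19 without a filter, 4 with 10 or more counts required in every library, 2 without posterior replicates 2 and 3, and 2 to 21 with single libraries left out, while calls toward the anterior palate numbered 5 and ranged from 2 to 7. Over all genes tested, the share called toward the posterior palate was 4.87% with the design used, 8.56% with DESeq2, 4.28% with limma-voom, 5.01% without a filter, 3.76% with 10 or more counts in every library, 4.4% with the library-group term, 3.74% without posterior replicates 2 and 3, 25.3% without posterior replicate 1 (the fit behind the highest of these counts, 7 and 21) and 2.03% to 2.93% without another single library. The replicate numbers were not shown to pair the libraries (correlations of deviations -0.0527, 0.045 and 0.0355). With the replicate block, 2 neuronal genes were called toward the posterior and 1 toward the anterior palate, 0 receptors (posterior) and 1 (anterior), 0 Schwann genes, and 3 and 4 genes of the other lists. In that fit 3.78% of all genes tested were called toward the posterior and 1.51% toward the anterior palate. The anterior share was 2.59% with the design used, 4.06% with DESeq2 and 2.57% with limma-voom. It was 2.13% without a filter and 2.25% with 10 or more counts in every library. Without posterior replicate 1 it was 21.1%, and without another single library 0.909% to 1.71%.

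Signs turned under these alternatives, none of them called: with the library-group term Stmn2 (-0.46), Avil (-0.034), Scg2 (-1.28), Ntrk3 (-0.24), Fabp7 (-0.031) and Cdh19 (-0.41). Without posterior replicates 2 and 3 the values were -0.47, -0.035, -1.28, -0.24, -0.032 and -0.41 in the same order. Both fits compare posterior replicate 1 alone with the anterior libraries, so they are not separate checks. The transcript length correction turned Ntrk3 (-0.33) and Sox10 (0.035), and limma-voom (0.34) and the replicate block (0.16) turned Ret. With single libraries left out, log2 fold changes ranged as follows.
Tubb3 from -0.29 to 1.86, Stmn2 from -0.89 to 1.61, Uchl1 from -0.28 to 0.86, Avil from -0.11 to 0.23, Scg2 from -0.57 to 1.82, Ret from -1.0 to 1.59, Sox10 from -0.25 to 0.051 and Fabp7 from -0.27 to 0.59.

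Beside the calls lost with single libraries left out, calls ended with the library-group term for Nefl, Isl2, Gfra1, Erbb3, Map2, Prx, Mal, Gdnf, Artn and Nrg1, with limma-voom for Nefl, Gfra1, Erbb3, Map2 and Nrg1, with the replicate block for Gfra1, Erbb3, Map2, Prx, Artn, Nrg1 and Ntf3, and with the transcript length correction for Map2 and Nrg1.

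With 3 libraries a region and 1 of the posterior libraries far above the others, the spread sets what could be called: a log2 fold change of 4.28 for Ina was not. Genes below 10 reads in 3 libraries, among them most autonomic genes, were tested only without a filter. The causes of the differences between alternatives were not tested, apart from filters and left-out libraries, which change the genes or samples in the fit.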

Other observations

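Anterior replicate 3 stood apart at a few genes that are unrelated in the lists, and they were picked out after their values were seen. Ret had 221 reads there, against 30 and 40 in the other anterior libraries. Syn1, a synaptic vesicle protein, had 113 reads against 18 and 18. Egr2, a factor of myelinating Schwann cells that is also switched on by growth signals in other cells, had 135 reads against 10 and 24. Thy1, a surface protein of neurons and some other cells, had 216 reads against 98 and 116. The summed neuronal level of that library, 161 CPM, was nevertheless the lowest of the anterior libraries.

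Hmx3 and Hmx2, homeobox factors, had 27 and 20 reads in posterior replicate 2 and at most 6 in any other library. Calca, the gene of calcitonin and of the sensory peptide CGRP, had 64, 120 and 29 reads in the anterior and 0, 30 and 59 reads in the posterior libraries, and was not called (adjusted p = 0.375). It was called higher in the anterior palate with the library-group term (adjusted p = 0.0195) and without posterior replicates 2 and 3 (adjusted p = 0.0240), fits that rest on the 0 reads of posterior replicate 1.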
